A study of Salmo salar with 12 samples.

Results

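Chromatin accessibility in the liver of female Atlantic salmon was compared between T3 and T1, with 3 libraries at each time point out of 12 in the series. T1 fish were sampled just before a long-light photoperiod was applied, and T3 was the second of the 3 samplings that followed at 2-week intervals. All fish were brood stock about 3 years old from 1 management group, and each library came from snap-frozen liver of a separate biological replicate. Fish held on the earlier light regime until T3 are not among the samples used here, so that the effect of long light and the passage of time cannot be told apart. A peak entered the comparison when its CPM (its count scaled to a common total of counts in peaks per library) was above 1 in at least 2 of the 6 libraries. This kept 93444 of the 94780 consensus peaks, and the question asked of them was how many regions lost and how many gained accessibility, and whether the balance depended on how accessible a region was.

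ATAC-seq uses the Tn5 transposase, which inserts sequencing adapters preferentially into DNA that nucleosomes do not cover. A high count in a peak therefore marks an open region, commonly a promoter or an enhancer, and a change in count marks a region that opened or closed. In female fish the liver responds to oestrogen during sexual maturation by making yolk precursor and egg envelope proteins, a task that draws heavily on lipid and energy metabolism. The liver was sampled as bulk tissue, in which a change of accessibility within cells and a change in the mix of cell types cannot be told apart. The count table identifies peaks by number alone, so the regions are given below by number, and their genomic sequence, nearest genes and tissue markers were not analysed here.

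Total counts in peaks ranged from 11796690 to 31312069 in the T1 libraries and from 7476523 to 23759764 in the T3 libraries. The shallowest library of each group was T1 replicate 1 and T3 replicate 3. Spearman correlations across tested peaks were 0.872 to 0.945 for the 6 pairs of libraries within a group and 0.864 to 0.940 for the 9 pairs between groups, ranges that overlapped almost completely. These correlations run across peaks, which are no independent replicates of a library.

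Between T1 and T3, 4 of the tested peaks were DARs (differentially accessible regions, with an adjusted P under 0.05 in edgeR's quasi-likelihood test and an absolute log2FC above 1). This was 0.00428% of the tested peaks, and it divided into 2 peaks that gained accessibility (0.00214%) and 2 that lost it (0.00214%). At an unadjusted P under 0.05 the test picked out 6654 peaks (7.12%), where 5% would be 4672.

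The gains were a peak of low accessibility and a peak with almost no counts in the livers sampled before long light. The DAR with the smallest P, peak14200, was covered by 36, 62 and 65 counts before long light and by 557, 332 and 236 counts at T3. On the CPM scale, with libraries scaled by TMM (edgeR's trimmed mean of M-values), this was 2.83, 3.14 and 2.15 at T1 against 24.9, 25.5 and 28.5 at T3. All T3 libraries lay far above all T1 libraries, and the spread within T3 was small (log2FC 3.28 with a standard error of 0.25, edgeR quasi-likelihood adjusted P = 0.00195). The other gain, peak98942, went from 0, 1 and 1 counts to 133, 89 and 31 counts. Taking every T1 library at 3 counts, the most that is treated as absent here, its CPM was at least 33.9-fold higher at T3 (edgeR adjusted P = 0.00423). This bound rests on the 3-count convention and the observed T3 mean, and takes in no spread between libraries. Across the tested peaks, only 3 had 3 counts or fewer in every T1 library, and peak98942 was the 1 among them with 10 counts or more in every T3 library.

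The DARs that lost accessibility were open in every T1 library and of low accessibility in every T3 library. For peak72977 the CPM was 21.1, 15.0 and 17.7 at T1 and 2.32, 2.76 and 2.17 at T3, from 269, 295 and 533 counts against 52, 36 and 18. The groups did not overlap, and the lowest T1 library exceeded the highest T3 library by more than the spread within either group (log2FC -2.88, with a standard error of 0.26, edgeR adjusted P = 0.00495). The T1 libraries of peak87193 were nearly equal, at 8.72, 8.57 and 8.98 CPM, and its T3 libraries stood at 1.07, 0.614 and 1.21 CPM (log2FC -3.19 with a standard error of 0.33, edgeR adjusted P = 0.0159). With 1 library left out in turn, peak14200, peak98942 and peak72977 were DARs in all 6 fits, and peak87193 was a DAR in 2, without T3 replicate 1 and without T3 replicate 3, with edgeR adjusted P values from 0.0157 to 0.0930 over the 6 fits. The call was lost for both peak14200 and peak72977 when library sizes were taken from the mapped reads (edgeR adjusted P = 0.152 and 0.183). With the spread estimated over all 12 libraries, peak14200 and peak87193 lost it (edgeR adjusted P = 0.637 and 0.0881), and peak87193 also lost it with TMM factors from the highest decile of accessibility (edgeR adjusted P = 0.0675). Standard errors of log2FC were computed back from the F statistic and restate its P. Without T1 replicate 1 and T3 replicate 3, 0 peaks were DARs by this test, although 7594 of 88305 peaks had an unadjusted P under 0.05 and edgeR's exact test called 650.

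Below these 4 peaks in rank, several losses and gains of several fold separated the groups without passing the adjusted threshold. Together with the DARs these were the 8 peaks in each direction with the smallest P among those beyond 2-fold whose T3 libraries all lay to 1 side of the T1 libraries. The first to miss the threshold was peak45364, with a CPM of 36.0, 17.3 and 28.8 at T1 and 2.81, 3.84 and 5.55 at T3. Its T1 libraries spread over about a doubling, and the log2FC of -2.79 had an edgeR adjusted P of 0.0525. At the same adjusted P of 0.0525, peak14199 stood at 22.7, 32.0 and 19.7 CPM at T1 and at 102, 119 and 155 CPM at T3 (log2FC 2.34, edgeR quasi-likelihood test). It is numbered next to peak14200, and both had their highest T3 value in replicate 3, the shallowest library. With 1 library left out, peak45364 became a DAR without T1 replicate 2 or T3 replicate 3, and peak14199 without T3 replicate 1 or T3 replicate 3.

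**Figure D1:**
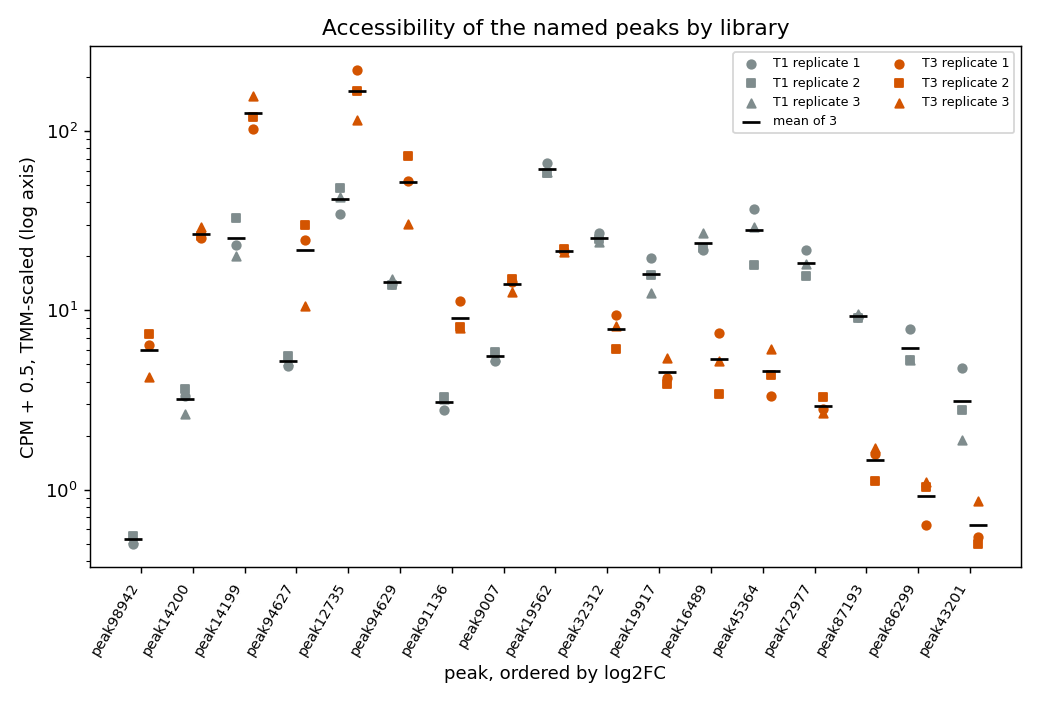
Accessibility of 17 named peaks in each of the 6 libraries, as TMM-scaled CPM plus 0.5 on a log axis, ordered by log2FC, with 1 point per library and a bar for the mean of 3. In every peak the T3 libraries (orange) lie to 1 side of the T1 libraries (grey), which the rule for choosing the peaks required for all but the DARs and peak43201. The DAR peak87193 has T1 values within 8.57 to 8.98 CPM.

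The other named gains spanned a wide range of levels at T1. For peak12735, one of the most accessible named peaks, the CPM was 33.8, 47.3 and 42.3 at T1 and 219, 166 and 115 at T3 (log2FC 2.02, edgeR adjusted P = 0.14). For peak94629 it was 13.6, 13.4 and 14.5 at T1 and 52.1, 71.5 and 29.8 at T3 (log2FC 1.89, edgeR adjusted P = 0.141). In both peaks the T3 libraries differed more from each other than the T1 libraries did, with replicate 3 the lowest. The same held for peak94627, at 4.4 to 5.07 CPM at T1 and 24.2, 29.4 and 10.0 CPM at T3. More even among the T3 libraries were peak9007, with 13.9, 14.4 and 12.2 CPM at T3 against 4.71 to 5.37 at T1, and peak91136, with 10.7, 7.60 and 7.47 CPM against 2.28, 2.79 and 2.68. All 5 peaks of this paragraph were DARs by edgeR's exact test, with an adjusted P from 7.99e-08 to 0.000764. The peaks were chosen for separation and a small P on the same libraries, so these calls are no separate support.

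Among the losses, peak19562 had the most even T3 libraries. Its CPM was 66.0, 57.7 and 58.3 at T1 and 20.8, 21.4 and 20.5 at T3 (log2FC -1.54, edgeR quasi-likelihood adjusted P = 0.109), and it belonged to the tenth of peaks with the highest accessibility. The largest change among these losses was in peak86299, which went from 7.38, 4.76 and 4.80 CPM at T1 to 0.134, 0.537 and 0.603 at T3 (log2FC -3.87, edgeR quasi-likelihood adjusted P = 0.106). The other 3 losses, peak16489, peak32312 and peak19917, had T1 means of 23.2, 24.9 and 15.4 CPM and T3 means of 4.85, 7.40 and 4.01 CPM. A region with counts at T1 and absent at T3 (3 counts or fewer) was peak43201, where 54, 45 and 42 counts stood against 1, 0 and 3. It belonged to the lowest decile of accessibility, and its CPM at T1 was uneven, at 4.24, 2.28 and 1.39. With the T3 libraries taken at 3 counts each, its CPM was at least 10.9-fold lower at T3 (edgeR quasi-likelihood adjusted P = 0.205). It was the 1 peak with 10 counts or more in every T1 library among 4 peaks with 3 counts or fewer in every T3 library.

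Losses outnumbered gains in most ways of counting the changed peaks. Of the peaks with an unadjusted P under 0.05, 3869 were lower at T3 (4.14% of tested peaks) and 2785 were higher (2.98%), so that losses made up 58.1%. This balance turned to 2600 losses and 2986 gains (46.5%) with TMM factors from the highest decile of accessibility, and to 3230 and 3460 (48.3%) without T1 replicate 1. In a wider list of 169 peaks with an adjusted P under 0.2 (0.181%), a threshold set after the data were seen, 121 were lower and 48 were higher (71.6% losses). With no model, 5% of peaks (4672) would have all T3 libraries to a given side of the T1 libraries if libraries came in random order. Here 6453 peaks had all 3 T3 libraries below all 3 T1 libraries (6.91%) and 5299 had them above (5.67%). Restricted to changes beyond 2-fold, these numbers were 1308 (1.4%) and 925 (0.99%). The balance of non-overlapping peaks turned without TMM, to 5547 below and 6197 above (47.2% losses), and was 51.4% losses with loess offsets.

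Pooled over all levels of accessibility, the size of the differences alone showed no such lean. Among all tested peaks 47.6% had a log2FC below 0, the median log2FC was 0.02, and 1896 peaks fell beyond 2-fold on the lower side against 1945 on the higher side. The median log2FC of the peaks with an unadjusted P under 0.05 was also similar in size, at -0.87 for losses and 0.90 for gains. The pooled balance beyond 2-fold differed by level. The lowest decile of accessibility held 407 losses and 721 gains, and the second 306 and 324. Losses outnumbered gains in every decile from the third up. More losses than gains were thus separated from T1 by the test, at changes of about the same size but at a higher level. The median log2 CPM was 2.96 for these losses and 2.48 for these gains.

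edgeR's exact test, which treats the estimated spread of a peak as known, called a larger set of 475 DARs (0.508%) that included all 4 of the quasi-likelihood test. Of these, 325 had lost accessibility (0.348%) and 150 had gained it (0.161%), a share of losses of 68.4%. DESeq2 called 526 (0.563%), of which 348 were losses. The share of losses among exact test DARs stayed above 50% in each of the other scalings, filters and sets of libraries tried, at 52.5% to 77.3% (without loess offsets, which this test does not use). It was lowest when TMM factors came from the tenth of peaks with the highest accessibility, at 135 losses and 122 gains, and highest without T1 replicate 3, at 143 losses and 42 gains. It was 55.7% of 650 DARs without T1 replicate 1 and T3 replicate 3. No test was made on these shares, because peaks of the same livers are not independent observations.

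**Figure D2:**
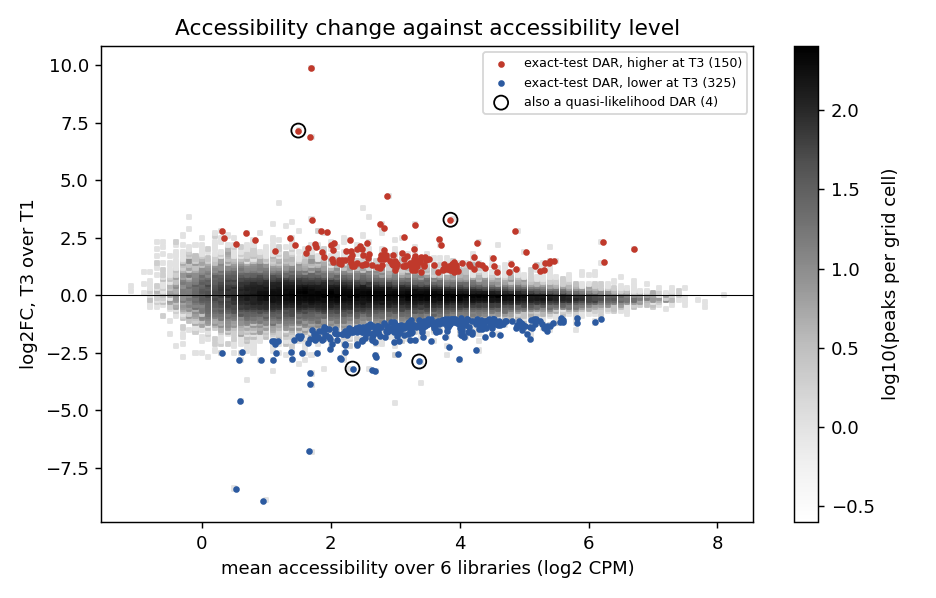
Log2FC of T3 over T1 against mean accessibility in log2 CPM for the 93444 tested peaks (grey, shaded by the number of peaks per grid cell), with the exact test DARs that were higher (150, red) or lower (325, blue) at T3. The 4 circled peaks are also DARs by the quasi-likelihood test, and the cloud narrows from left to right as accessibility grows.

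In 462 of the 475 exact test DARs (97.3%) the T3 libraries lay wholly to 1 side of the T1 libraries, in 318 of 325 losses and in 144 of 150 gains. All 475 had an unadjusted P under 0.05 in the quasi-likelihood test. Both results follow largely from choosing the DARs on the same 6 libraries, and they are no separate support for the calls. Changes beyond 4-fold were seen in 41 losses and 35 gains. The most extreme log2FC values mostly belonged to peaks that were missing from a single library of the group in which they were open. Of the 6 exact test DARs with the largest absolute log2FC, which were chosen after their values were seen, 5 had 10 counts or more in only 2 libraries of that group. The largest gain, peak23820, had 0 counts in each T1 library and 1, 78 and 120 counts at T3. Its neighbour in number, peak23819, had 0, 2 and 1 against 0, 87 and 111. On the side of losses, peak18726 had 0, 132 and 104 counts at T1 and 0 in each T3 library. In the adjacent peak18725, counts of 0, 171 and 253 stood against 1, 1 and 0. For peak18834 the counts were 0, 55 and 131 at T1 and 0 in each T3 library. edgeR's quasi-likelihood test gave these 5 peaks adjusted P values from 0.225 to 0.292. In the sixth, peak98942, all 3 T3 libraries were open.

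Peaks with adjacent numbers recurred among the changed regions, as in peak14199 with peak14200. Close to this pair in number, peak14195, peak14196, peak14198, peak14201 and peak14202 were exact test gains as well. The named gains peak94627 and peak94629 are also close in number, so the named peaks need not all be separate regions. Of the exact test DARs, 57 of 475 (12.0%) had a peak 1 number away that was called in the same direction, and 2 (0.421%) had such a neighbour called in the opposite direction. By direction, 25 of 150 gains had a neighbouring gain, where 0.310% of all tested peaks had one, and 32 of 325 losses had a neighbouring loss, where 0.674% of all tested peaks had one. The positions behind the numbers were not analysed here.

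With TMM scaling and all 6 libraries, the share of losses was higher among more accessible peaks, a gradient that did not hold under several of the settings given further on. When the tested peaks were divided into 10 equal classes by their mean log2(CPM + 0.5) over the 6 libraries, the median CPM was 1.13 in the lowest decile and 38.1 in the highest. The median log2FC moved from 0.12 in the lowest decile to 0.03 in the seventh decile and to -0.07 in the highest. In the lowest decile, 141 peaks at an unadjusted P under 0.05 were lower at T3 and 173 were higher, a share of losses of 44.9%. From the third decile to the fifth the share was 50.4% to 51.9%, so that gains and losses were nearly equal. From there it climbed through 59.5% in the seventh and 65.1% in the eighth decile to 71.4% in the ninth. In the highest decile 283 peaks were lower and 86 were higher, or 76.7% losses.

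**Figure D3:**
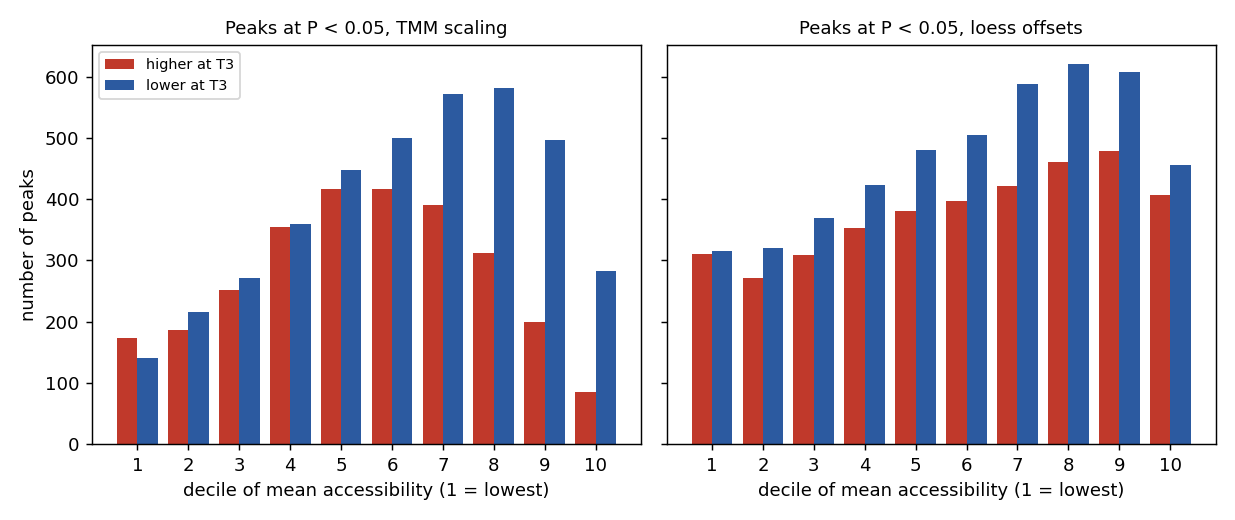
Number of peaks with an unadjusted P under 0.05 that were higher (red) or lower (blue) at T3 in each decile of mean accessibility, with TMM scaling on the left and with loess offsets on the right. With TMM the highest decile holds 283 losses and 86 gains, and with loess offsets it holds 456 and 407.

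Without a model, losses also prevailed among the most accessible peaks, but gains did not prevail among the least accessible ones. This count used the same TMM-scaled libraries and deciles, so it is no separate support, and it was not made by decile under other scalings. In the highest decile 612 peaks had all T3 libraries below the T1 libraries and 154 had them above, whereas in the lowest decile the numbers were 376 and 358 (51.2% losses). From the second decile to the fifth the share of losses by this count was 46.9% to 48.5%, below that in the lowest decile. Beyond 2-fold, the lowest decile held 407 lower and 721 higher peaks and the highest decile held 39 lower and 20 higher peaks. The exact test DARs were less uneven across levels, with 71.7% of the losses and 66.0% of the gains in the upper 5 deciles, and with a median CPM of 8.33 for losses and 7.23 for gains.

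The spread between libraries and the number of calls also varied with level. The spread of log2FC between peaks, as a scaled median absolute deviation, fell from 0.60 in the lowest decile to 0.19 in the highest. Within the T1 group the median SD of log2(CPM + 0.5) between libraries fell from 0.49 in the lowest decile to 0.24 in the eighth and was 0.27 in the highest. In the T3 group it was larger in every decile, from 0.56 in the lowest to 0.29 in the highest. The percentage of peaks at an unadjusted P under 0.05 was largest at 6.22% for losses, in the eighth decile, and at 4.45% for gains, in the fifth and the sixth. In the lowest decile it was 1.51% and 1.85%. There the median peak had 8 counts in the library where its count was lowest.

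The gradient with level was set against the libraries themselves, and it was smaller than their differences within a group. For each library, the median deviation from the 6-library mean was taken in the highest decile and that in the lowest decile was subtracted. This tilt was -0.61, 0.35 and 0.47 in T1 replicates 1 to 3 and 0.52, 0.01 and -0.77 in T3 replicates 1 to 3. The shallowest library of each group had a strongly negative tilt, with fewer of its counts in highly accessible peaks and more in weakly accessible ones. In T1 replicate 1 and T3 replicate 3 the highest decile held 39.5% and 37.6% of the counts in peaks, against 42.2% to 45.9% in the other 4 libraries. The mean tilt of the 3 libraries was 0.07 (SD 0.59) at T1 and -0.08 (SD 0.65) at T3, a difference of -0.15 that a two-sided exact permutation test did not separate from 0 (p = 0.8, where the smallest p that 3 against 3 libraries allow is 0.1). The ratio of nuclei to transposase was optimised for each sample, and which ratio a library had is not given in the sources used here, so that its part in the tilt was not tested.

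**Figure D4:**
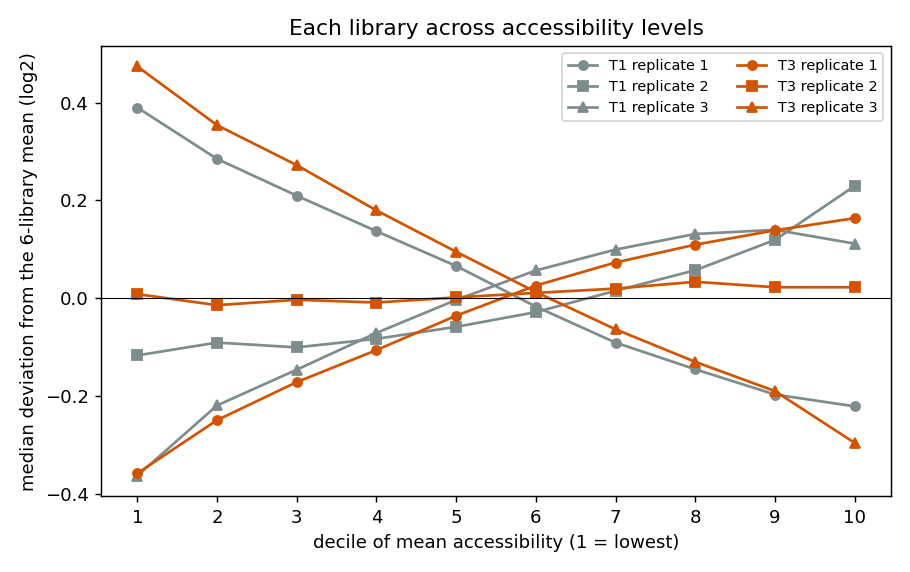
Median deviation of each library from the 6-library mean, in log2(CPM + 0.5), across deciles of mean accessibility. T1 replicate 1 and T3 replicate 3 fall from left to right, from 0.39 and 0.47 in the lowest decile to -0.22 and -0.30 in the highest, while T1 replicate 3 and T3 replicate 1 run the other way.

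Leaving out single libraries changed the gradient. The share of losses in the highest decile exceeded that in the lowest by 31.8 percentage points with all 6 libraries. Without T3 replicate 3 it was lower by 17.0 points instead, at 51.5% in the highest and 68.5% in the lowest decile. Without T1 replicate 2 the difference was 0.89 points, and without T1 replicate 3 it was 8.50 points. Without T3 replicate 2 it stayed close to the full value, at 29.6 points. Without T3 replicate 1 it grew to 66.2 points, and without T1 replicate 1 to 64.3 points. Without both of the shallowest libraries it was 16.7 points, with 61.2% losses in the highest and 44.5% in the lowest decile.

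The choice of scaling and of the measure of level weighed as much. Loess offsets remove from each library any shift that depends on level. With them, and with the deciles of the TMM-scaled level kept, the share of losses was 50.4% in the lowest and 52.8% in the highest decile. With deciles of the loess-adjusted level it was 49.8% and 52.8%, a difference of 3.08 points. In no decile of the TMM-scaled level did it go beyond 58.2%. Losses still outnumbered gains, by 4686 to 3789 at an unadjusted P under 0.05 in the quasi-likelihood test (55.3%). edgeR's exact test does not use such offsets, so its DARs give no count corrected for level. When the level was taken from the T2 libraries, which belong to neither group, the share of losses was 67.7% in the lowest and 61.7% in the highest decile, with a minimum of 52.9% in the sixth. The median log2FC was 0.07 in the lowest of these deciles and -0.06 in the highest. Deciles of the T1 libraries alone gave 2.90% and 93.8% losses in the lowest and highest decile, and deciles of the T3 libraries alone gave 95.1% and 48.8%. These 2 measures use the values of 1 group only and select for changes in opposite directions. The T2 level may select by direction as well. The exact test DARs, followed in T2 below, stood away from T1 there, at a mean log2 difference of -0.998 for losses and 1.16 for gains. How far this moved the shares by T2 level was not tested.

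The exact test DARs were then followed in the T2 and T4 libraries, which had no part in choosing them, although all changes are expressed from the same T1 libraries. The T2 and T4 libraries are named by their GEO descriptions, with a limit given in the section on processing. Because high or low T1 values helped to choose the DARs, T2 and T4 values away from 0 can arise without any change, and the values are given side by side as a description only. For each library, the median over DARs of log2(CPM + 0.5) minus the T1 mean was taken after TMM scaling of all 12 libraries. The 325 losses were at -1.33 ± 0.15 at T3, at -0.998 ± 0.323 at T2 and at -1.24 ± 0.49 at T4 (SD, n = 3 libraries each). Values of -1.29, -1.06 and -0.65 were found in the T2 libraries and of -1.70, -1.30 and -0.72 in the T4 libraries. The 150 gains were at 1.33 ± 0.19 at T3, 1.16 ± 0.55 at T2 and 0.80 ± 0.52 at T4. For gains the T2 values were 1.64, 1.29 and 0.57 and the T4 values 0.57, 0.43 and 1.40. Among T2, T3 and T4 the libraries were most even at T3 in both sets, which were chosen on T3, and T2 replicate 3 was the T2 library nearest to T1 in both.

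**Figure D5:**
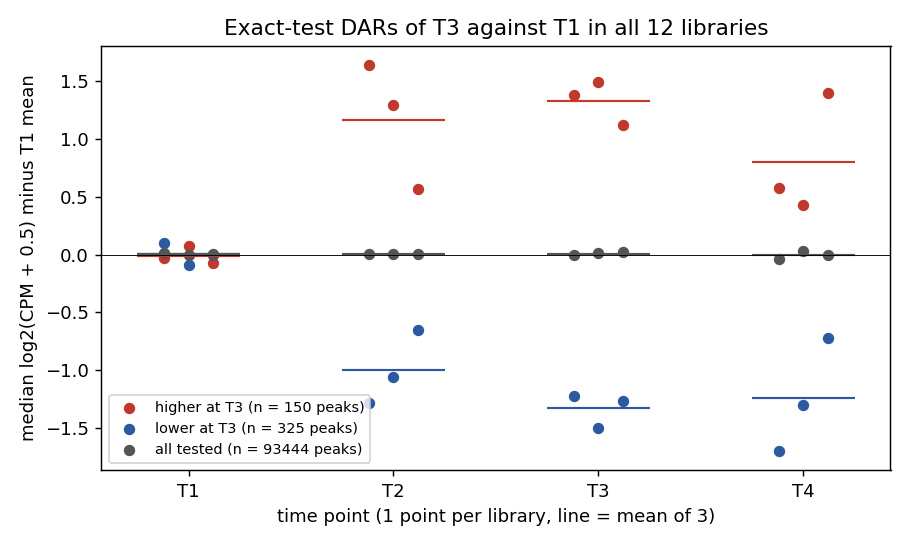
Median log2(CPM + 0.5) minus the T1 mean for the exact test DARs of T3 against T1, with 1 point per library and a line for the mean of 3, for 150 gains (red), 325 losses (blue) and all 93444 tested peaks (grey). The T1 and T3 libraries chose the DARs and T1 is the common baseline, so the plot is a description, in which the T2 and T4 libraries scatter more widely than the T3 libraries.

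Individual peaks followed different courses. With all 12 libraries scaled together, peak72977 was at 21.5, 14.9 and 17.9 CPM at T1, at 11.4, 9.06 and 12.0 CPM at T2 and at 2.34, 2.78 and 2.19 CPM at T3. Its T2 libraries thus lay between the T1 and the T3 libraries, and its T4 libraries, at 5.17, 5.05 and 4.58 CPM, were above those of T3. By contrast, peak87193 was at 1.2, 1.61 and 0.885 CPM at T2 and at 0.795, 2.22 and 1.41 CPM at T4, values that overlapped those of T3. Among gains, peak91136 had 3.41, 1.49 and 1.38 CPM at T2, where T1 libraries were at 2.32, 2.78 and 2.72 CPM, and 10.8, 7.64 and 7.54 CPM at T3. Its accessibility at T4 was split, with 1.67 CPM in replicate 1 and 6.66 and 7.88 CPM in the others. At peak14200 the T2 libraries were spread from 3.49 to 21.5 CPM and the T4 libraries from 5.86 to 19.5 CPM, whereas the T3 libraries stayed between 25.1 and 28.7 CPM.

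The filter left out 1336 peaks. Their median count was 9 per library, and none was at 0 in all 6 libraries. The highest CPM of any left-out peak was 9.08, in a single library.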

How the data were processed

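The deposited counts are whole numbers of reads per consensus peak and library. The authors aligned reads to ICSASG_v2 with Bowtie2 2.3.5.1, removed duplicates as well as reads that were mitochondrial or not uniquely mapped, and called peaks with MACS2. Peaks seen in 2 or more replicates of any time point were merged, and reads in them were counted by the authors with HTSeq 0.11.1. A shift of read ends for Tn5 is not given in the sources used here. A deposited table of log2(CPM + 1) values was not used, since it derives from the same counts.

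Libraries were grouped by their GEO descriptions. In the study's list of mapped reads, library code and description agreed for T1 and T3 but not for other libraries. Which of them holds there was not tested, and values given for T2 and T4 rest on the GEO descriptions. The 6 libraries of T1 and T3 were fitted across all 93444 tested peaks with R 4.3.3 and edgeR 4.0.16, using TMM factors and the quasi-likelihood test with Benjamini-Hochberg adjustment. Alternatives were edgeR's exact test, DESeq2 1.42.0, other library sizes (including the uniquely mapped reads listed by the study), loess offsets (limma 3.58.1, span 0.3), other filters, a replicate block, all 12 libraries and left-out libraries. Named peaks were the DARs, the 8 highest-ranked separated peaks beyond 2-fold in each direction, the first in each of 3 classes of accessibility, and peaks absent (3 counts or fewer) from 1 group and at 10 counts or more in every library of the other. The members, lists and rules were chosen with earlier results of these data known. The fits were also run on simulated counts, which had no library tilt and a spread set by accessibility level alone. That run is no support for the calls made here. P-values rest on the spread between libraries of a group, in which differences between fish and between library preparations cannot be told apart. Figures were drawn with matplotlib 3.10.9.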

Additional observations from a re-analysis of the deposited data

How the results depend on the processing

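The number of DARs depended on the test and the scaling. It was 475 with edgeR's exact test and 526 with DESeq2, 62 with mapped reads as library sizes, 12 with loess offsets, 7 with the replicate block, 2 with all 12 libraries, 2 with at least 10 counts in every library, 169 at an adjusted P under 0.2 and 0 without the shallowest library of each group, and it ranged from 4 to 19 with 1 library left out (19 without T3 replicate 3, 15 without T3 replicate 1, 7 without T1 replicate 2). Peaks at an unadjusted P under 0.05 numbered 2294 with mapped reads and 4173 with all 12 libraries, and 4347 to 8256 with 1 library left out (4347 without T3 replicate 2). Their share of losses was 52.5% without TMM, 66.3% with mapped reads, 55.3% with loess offsets, 46.5% with TMM on the highest decile of accessibility, 56.3% with no filter, 61.7% with the replicate block, 55.5% with all 12 libraries and 52.4% without both shallowest libraries. It ranged from 48.3% (without T1 replicate 1) to 60.6% with 1 library left out. Mapped reads set the median log2FC of all tested peaks at -0.14. Exact-test DARs numbered 55 with mapped reads and 257 with TMM on the highest decile of accessibility, and 131 to 764 with 1 library left out (131 without T3 replicate 2, 185 without T1 replicate 3, 265 without T1 replicate 1, 764 without T3 replicate 3). Their share of losses was 59.9% without TMM, 60% with mapped reads and 52.5% with TMM on the highest decile of accessibility. It was 55.7% without both shallowest libraries and 59.2% to 77.3% with 1 library left out. The share was 59.95% with loess offsets, which the exact test does not use, so that value carries no correction for level. Non-overlapping peaks numbered 3349 with mapped reads, and their share of losses was 47.2% without TMM. The difference in the share of losses between the highest and the lowest decile, 31.8 points, became -6.02 with the level from T2, 90.9 from T1, -46.3 from T3, 23.4 with 5 bins, 24.7 without TMM, -9.80 with mapped reads (3 losses and 4 gains in the highest decile), 3.08 with loess offsets and deciles of the loess-adjusted level, 56.4 with at least 10 counts in every library, 16.7 without both shallowest libraries, and -17.0 to 66.2 with 1 library left out. The value with mapped reads rests on the few peaks of the highest decile. Below it the share of losses rose from 52.7% in the lowest decile to 78.9% in the sixth and 88.5% in the eighth (23 losses and 3 gains). The median log2FC with mapped reads fell from -0.01 in the lowest decile to -0.21 in the highest. The tilt difference of -0.15 was -0.20 with mapped reads, 0.0779 with the level from T3, and -0.47 to 0.18 with 1 library left out. The 17 named peaks kept their direction in every setting in which they were tested. Choosing them on the same libraries for large differences largely fixed this in advance, so it is no separate support. Of these peaks, peak98942, peak87193, peak86299 and peak43201 did not pass the filter of at least 10 counts in every library. The cause of these changes was not tested.

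The fish were sacrificed at sampling, so replicate numbers cannot pair T1 and T3 livers by fish. Whether they pair the libraries in another way could not be decided from the counts. The tilt of single libraries enters the correlations below and can mask a pairing. Deviations from the group mean correlated at -0.46, 0.12 and -0.38 for replicates 1, 2 and 3 of T1 and T3, and the replicate block raised the DARs from 4 to 7. The highest correlations were 0.49 for T1 replicate 1 with T3 replicate 3 and 0.42 for T1 replicate 3 with T3 replicate 1. No setting was left out for time.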
